A study of Mus musculus with 18 samples.

Results

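Mest, Copg2, Peg10, Sgce and Ppp1r9a are genes of 2 imprinted regions of mouse chromosome 6, and their transcripts were followed here in embryos without one of the DNA methyltransferases Dnmt1, Dnmt3a or Dnmt3b. The members were taken by gene symbol, and all 5 were among the 31053 mouse genes of the count tables. Single-cell RNA-seq of the 10x Genomics 3′ type, which counts the 3′ ends of transcripts by unique molecular identifiers (UMIs), gave 18 libraries, each labelled as 1 embryo of embryonic day (E) 8.5, a stage of early organ formation. There were 7 wildtype (WT), 3 Dnmt1 null (Dnmt1 KO), 4 Dnmt3a null (Dnmt3a KO) and 4 Dnmt3b null (Dnmt3b KO) libraries, all on the 129S4/SvJae strain background and untreated. The KO embryos carried constitutive mutations, came from matings of heterozygous mice together with WT embryos, and were genotyped by PCR from ectoplacental cone tissue. Each library is labelled as a separate embryo, but the litters are not given, so differences between litters cannot be told apart from differences between embryos.

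Imprinted genes are expressed mainly from a single parental copy, which is set by DNA methylation laid down in the germline of a parent. Dnmt1 copies methylation to the new strand at each cell division, whereas Dnmt3a and Dnmt3b place it on DNA that lacked it. Both regions have a control region that is methylated on the maternal copy, at the promoter of Mest and at the start shared by Peg10 and Sgce, and Mest, Peg10 and Sgce are known to be expressed from the paternal copy. Copg2 and Ppp1r9a lie next to them and have been described as maternally biased in some tissues. The UMI counts hold both parental copies together, so no allele was read here.

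Peg10 (ENSMUSG00000092035), a gene derived from a retrotransposon and needed in the placenta, lies on the plus strand of chromosome 6 at chr6:4747306-4760517 of the GRCm38 (mm10) build, in the GENCODE vM21 annotation. Sgce (ENSMUSG00000004631), which encodes the membrane protein epsilon-sarcoglycan, lies on the minus strand at chr6:4674350-4747207, so that the first bases of the pair are 99 bp apart and the genes point away from each other. Ppp1r9a (ENSMUSG00000032827), which encodes the actin-binding protein neurabin, starts 156 kb from Peg10 and spans chr6:4902917-5165661 on the plus strand. Mest (ENSMUSG00000051855), the mesoderm specific transcript, which encodes a protein of the hydrolase family, lies 26 Mb away at chr6:30723547-30748465 on the plus strand. Copg2 (ENSMUSG00000025607), which encodes a coat protein of vesicles of the secretory pathway, lies on the minus strand at chr6:30747554-30896794, and its 3′ end overlaps that of Mest by 912 bp. Strand is kept by the 10x Genomics 3′ chemistry, so reads of Mest and Copg2 in the overlap come from opposite strands.

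RefSeq promoter windows of 300 bases, from 250 bases before to 50 bases after a transcript start, matched 3 of the 5 genes. They are shown for Mest, Copg2 and Ppp1r9a because CpG sites, where Dnmt1 acts, are unequally dense in them, and the capitals mark each CpG. The windows are given on the strand of the gene in the GRCm38.p6 build, as chr6:30737800-30738099 for Mest (plus strand), chr6:30896745-30897044 for Copg2 (minus strand) and chr6:4903061-4903360 for Ppp1r9a (plus strand).
Mest: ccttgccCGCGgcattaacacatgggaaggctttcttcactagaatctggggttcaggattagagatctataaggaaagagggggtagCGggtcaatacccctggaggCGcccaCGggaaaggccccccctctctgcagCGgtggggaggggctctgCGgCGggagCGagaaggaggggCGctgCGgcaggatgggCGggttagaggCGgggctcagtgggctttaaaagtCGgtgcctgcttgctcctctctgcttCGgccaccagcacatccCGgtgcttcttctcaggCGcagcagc
Copg2: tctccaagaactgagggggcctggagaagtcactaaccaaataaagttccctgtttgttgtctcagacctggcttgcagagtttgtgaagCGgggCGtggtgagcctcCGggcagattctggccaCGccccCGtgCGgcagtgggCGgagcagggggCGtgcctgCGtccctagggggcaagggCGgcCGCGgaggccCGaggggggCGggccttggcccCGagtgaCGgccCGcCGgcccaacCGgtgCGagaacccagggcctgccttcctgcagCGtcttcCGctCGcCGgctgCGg
Ppp1r9a: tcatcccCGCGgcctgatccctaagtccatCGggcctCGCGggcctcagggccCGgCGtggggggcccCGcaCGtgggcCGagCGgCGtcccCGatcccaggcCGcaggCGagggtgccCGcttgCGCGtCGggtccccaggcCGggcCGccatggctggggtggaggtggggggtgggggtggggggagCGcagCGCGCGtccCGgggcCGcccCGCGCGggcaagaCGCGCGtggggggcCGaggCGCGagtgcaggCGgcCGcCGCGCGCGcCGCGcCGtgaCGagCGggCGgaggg
The Mest window held 17 CpGs, a number reached by 31.4% of the 32851 RefSeq windows, whose median was 7. The Copg2 window held 25, reached by 18.4% of windows, and the Ppp1r9a window held 48, reached by 1.22%. An upstream Mest window at chr6:30733256-30733555 held 8 CpGs, and an upstream Ppp1r9a window at chr6:4902725-4903024, which holds the annotated start of the gene, held 10, reached by 43.5% of windows. The motif TGCCGC, read on either strand, was found 2 times in the Mest window, 1 time in the Copg2 window and 0 times in the Ppp1r9a window, against 11.6% of all windows with at least 1 match. These are descriptions of letters in a window, and methylation was not measured in these libraries.

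After filters, 107994 of 162336 barcodes were kept as cells, with 1361 to 12596 cells and 36504510 to 234084971 UMIs per library. The targeted gene was lower in every Dnmt1 KO embryo, at 14.9, 15.7 and 15.3 CPM (counts of UMIs scaled to a common library total) of Dnmt1 against 83.3 to 116 CPM in WT, and in every Dnmt3a KO embryo, at 7.45 to 11.8 CPM of Dnmt3a against 23.1 to 35 CPM in WT. Dnmt3b was not lower in the Dnmt3b KO libraries (57.5 to 68.3 CPM against 35.5 to 87.5 CPM in WT), and since a 3′ tag may lie outside the deleted part this checks nothing. Those labelled Dnmt3b KO 11 and 12 had 15.1 and 7.58 CPM of Dnmt3a, below every WT embryo, so these 2 libraries go against their label for Dnmt3a. The pair labelled Dnmt3b KO 1 and 2 shared 12249 cell barcodes, whereas no other pair shared more than 133, so they were summed and counted as 1 replicate, which left 3 for Dnmt3b KO. Of the 9149 shared barcodes with enough UMIs in both, 4869 had more UMIs in the first library and 4280 in the second. The median log2 ratios of the second to the first were -0.92 and 1.10 in these sets, and 0.459% of the barcodes lay within 0.5 of 0, so that the barcodes fell into 2 sets. Whether they come from 1 embryo or from 2 was not tested, and the summed level may be that of a mixture. Y-linked transcripts were found in 1 of 7 WT, 3 of 3 Dnmt1 KO, 4 of 4 Dnmt3a KO and 3 of 4 Dnmt3b KO libraries, so sex and genotype are largely confounded.

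In WT embryos, Peg10 and Sgce were highest in the same place, the allantois, the extra-embryonic tissue that forms the umbilical vessels. Cells were clustered, and clusters were given a class name from marker genes, which gave 19 classes with at least 25 cells in 3 or more WT embryos. Peg10 had 533 ± 107 CPM (SD, n = 6) in the allantois, 306 ± 52.6 CPM (n = 7) in the extra-embryonic (ExE) endoderm of the yolk sac and 168 ± 32.7 CPM (n = 7) in the ExE mesoderm. At the other end of the order, Peg10 had 12.5 ± 5.63 CPM (n = 3) in immune cells and 7.38 ± 1.55 CPM (n = 7) in erythroid cells. Peg10 was higher in the allantois than in the ExE endoderm in 6 of 6 embryos and higher in the ExE endoderm than in the ExE mesoderm in 7 of 7. Sgce had 219 ± 61.3 CPM (n = 6) in the allantois, 52.5 ± 6.62 CPM (n = 7) in the ExE mesoderm and 1.18 ± 0.234 CPM (n = 7) in erythroid cells. Sgce was higher in the allantois than in the ExE mesoderm in 6 of 6 embryos.

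**Figure D1:**
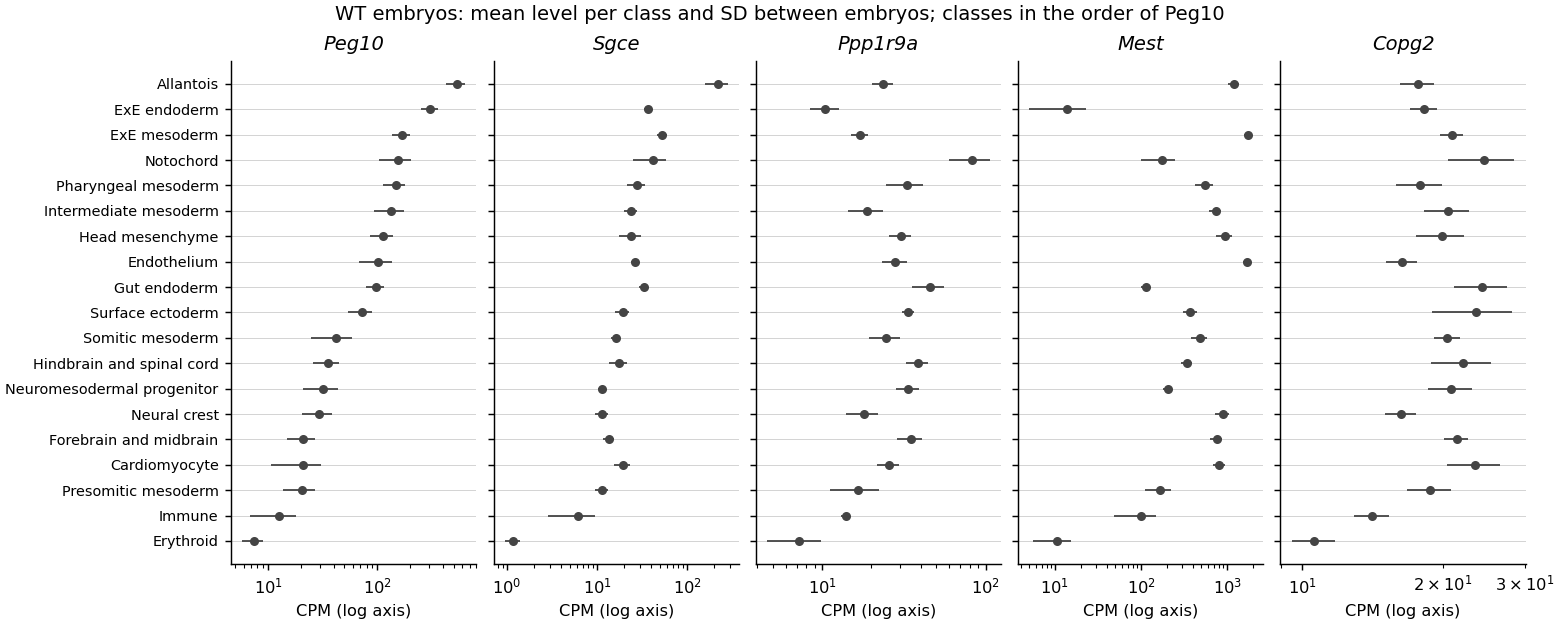
Mean level of each gene (CPM, log axis) in each of the 19 classes of WT embryos, with the SD between embryos as a bar and the classes in the order of Peg10. Peg10 and Sgce have their highest point in the allantois, Mest is near 10 CPM in the erythroid cells and ExE endoderm but above 1000 CPM in 3 classes, and Copg2 stays between 10.6 and 24.5 CPM.

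Mest followed a different order. It had 1763 ± 188 CPM (n = 7) in the ExE mesoderm, 1706 ± 167 CPM (n = 7) in the endothelium, the lining of blood vessels, and 1192 ± 166 CPM (n = 6) in the allantois. In the ExE endoderm, where Peg10 was second highest, Mest had 14 ± 8.93 CPM (n = 7), and in erythroid cells 10.6 ± 4.93 CPM (n = 7). Mesodermal classes spanned much of the order, down to 166 ± 56.6 CPM (n = 7) in the presomitic mesoderm, whereas the neural crest had 884 ± 159 CPM (n = 6). Ppp1r9a was highest in the notochord, with 82.8 ± 23.2 CPM (n = 4), followed by the gut endoderm with 45.7 ± 10.1 CPM (n = 7) and the hindbrain and spinal cord with 38.4 ± 5.81 CPM (n = 7), and it was lowest in the ExE endoderm (10.5 ± 2.11 CPM, n = 7) and erythroid cells (7.23 ± 2.63 CPM, n = 7). Copg2 varied least, from 24.5 ± 3.98 CPM (n = 4) in the notochord to 10.6 ± 1.12 CPM (n = 7) in erythroid cells. Neighbours in these orders were compared by exact two-sided paired permutation tests over embryos. None of the 90 tests passed after adjustment (lowest adjusted p = 0.176), because 7 pairs cannot give an exact p below 0.0156.

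Over the 19 class means of the WT embryos, the gene whose pattern was most like that of Peg10 among 7641 genes was Sgce, with a Pearson correlation of 0.90 of log2(CPM + 1). Next were Ptpn23, a phosphatase gene, at 0.87, Ostc, a subunit of the enzyme that attaches sugars to proteins in the endoplasmic reticulum, at 0.86, and Caml and Srd5a3 at 0.85 each. The genes most like Mest were Ndn, itself an imprinted gene of another chromosome, at 0.91, Map7d1 and Mapre1 at 0.90 each, Smarca2 at 0.89 and Ube2m at 0.88. Mest and Peg10 had a correlation of 0.28, Mest and Copg2 of 0.39, and Copg2 and Ppp1r9a of 0.76. These describe 19 class means that share libraries and depth.

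The question of the Dnmt1 KO comparison was whether the level of each gene in the whole embryo differed without the maintenance methyltransferase. Peg10 was the member with the largest difference. In WT embryos its lowest, median and highest levels were 78.4, 110 and 142 CPM, and in the Dnmt1 KO embryos 1 to 3 it had 524, 536 and 293 CPM. All 3 Dnmt1 KO embryos lay above every WT embryo, and the third was the lowest of them. The log2 fold change was 2.10 ± 0.19 (SE), a 4.28-fold rise (edgeR quasi-likelihood test, adjusted p = 4.7e-07). In these sums over a whole embryo, a change in the number of cells of a type and a change in RNA per cell cannot be told apart.

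**Figure D2:**
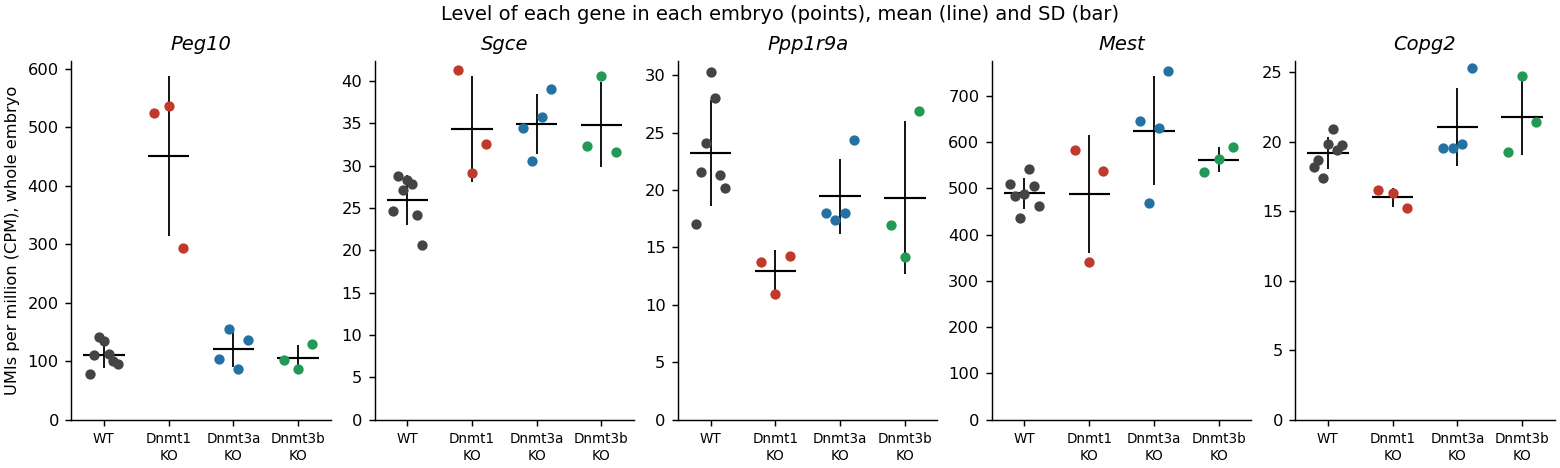
Level of each gene in each embryo (points, CPM on a linear axis from 0) in the 4 groups, with the group mean (line) and SD (bar), where the summed libraries labelled Dnmt3b KO 1 and 2 are 1 point. The Dnmt1 KO points for Peg10 lie at 293 to 536 CPM above all WT points, those for Ppp1r9a and Copg2 lie below all WT points, and the Sgce points of all 3 KO groups lie above all WT points.

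Sgce, which shares its start with Peg10, had 20.6, 27.2 and 28.8 CPM as lowest, median and highest WT level and 41.3, 29.1 and 32.5 CPM in the Dnmt1 KO embryos. All 3 were above every WT embryo, the second by less than 1 CPM. The log2 fold change was 0.47 ± 0.12, a smaller rise than that of Peg10 (edgeR adjusted p = 0.0066). Without the library Dnmt1 KO 1 it was 0.33 (edgeR adjusted p = 0.0766), without Dnmt1 KO 3 it was 0.49 (0.0124), without WT 5 it was 0.46 (0.0109) and without WT 6 it was 0.44 (0.0135), so the call rests on each of these 4 embryos. It also missed the threshold with total-count scaling (0.40, edgeR adjusted p = 0.0193) and with a covariate for the share of Y-linked counts (0.49, edgeR adjusted p = 0.0511).

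Ppp1r9a moved the other way. Its lowest, median and highest WT levels were 17.1, 21.6 and 30.3 CPM, and the Dnmt1 KO embryos had 13.7, 11 and 14.3 CPM. All 3 lay below every WT embryo. The log2 fold change was -0.76 ± 0.18 (edgeR adjusted p = 0.0031), and it was -0.79 (adjusted p = 0.0118) without Dnmt1 KO 1 and -0.67 (adjusted p = 0.0265) without Dnmt1 KO 2.

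In the Mest region no gene of the pair passed the test. Mest had 436, 488 and 542 CPM as lowest, median and highest WT level and 583, 342 and 538 CPM in the Dnmt1 KO embryos. The first lay above the WT range, the second below it and the third within it, and the log2 fold change was 0.06 ± 0.13 (edgeR adjusted p = 0.74). Copg2 had 17.4 to 20.9 CPM in WT embryos and 16.5, 16.3 and 15.2 CPM in the Dnmt1 KO embryos. All 3 were below every WT embryo, but the log2 fold change of -0.19 ± 0.08 did not pass (edgeR adjusted p = 0.076). In all, 2 of the 5 members rose and 1 fell in Dnmt1 KO embryos, in a comparison in which 23.3% of 18749 genes were called, 12.4% higher and 10.9% lower. The share of all genes whose groups did not overlap was not counted. With the study's added minimum of 1 on the log2 scale, which 14.1% of genes passed, Peg10 was the only member called.

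The makeup of the Dnmt1 KO embryos differed from that of WT embryos in the classes in which these genes are high or low. ExE ectoderm, which gives rise to the placenta, made up 4.86% to 31.2% of cells in Dnmt1 KO and 0% to 1.74% in WT embryos, ExE endoderm 22.2% ± 9.99 (SD, n = 3) against 13.1% ± 3.48 (n = 7), ExE mesoderm, where Mest is highest, 13.1% ± 4.76 against 4.10% ± 1.02, and erythroid cells 1.06% ± 1.03 against 11.6% ± 6.93. The allantois, highest for Peg10 and Sgce, made up 0.0570% ± 0.0717 against 2.89% ± 1.65. No Dnmt1 KO cell was named hindbrain and spinal cord or forebrain and midbrain, which made up 7.43% ± 2.42 and 5.47% ± 2.27 of WT cells. Other named classes were also absent. The notochord, highest for Ppp1r9a, made up 0.338% ± 0.0517 against 0.467% ± 0.176. Unnamed cells made up 10.6% to 47.3% in Dnmt1 KO and 12.6% to 25.4% in WT embryos. The 7 ExE ectoderm markers, none of them at 0 in a library, summed to 94.4 to 401 CPM in Dnmt1 KO and 34.2 to 53.0 CPM in WT embryos. In the few ExE ectoderm cells that WT embryos held, Peg10 had 443 CPM in WT 2 (124 cells), against 706, 684 and 787 CPM in the Dnmt1 KO embryos (80, 928 and 106 cells), with no replicate in WT. Outside the erythroid cells, ExE ectoderm and ExE endoderm, the log2 fold changes were measured again. Mest then passed the test (0.51, edgeR adjusted p = 0.0051) and Sgce did not (0.36), in cells that still include the ExE mesoderm. Peg10 and Ppp1r9a still passed, in the same directions as in the whole embryo, and Copg2 again did not pass. Each class was then weighted by its WT share, over the 4 classes with at least 25 cells in every embryo of both groups. These leave out the ExE ectoderm and erythroid cells. The difference in log2(CPM + 1) was 1.30 for Peg10 (exact permutation p = 0.0167), 0.32 for Sgce (exact p = 0.0333), -0.38 for Ppp1r9a (exact p = 0.0333), -0.28 for Copg2 (exact p = 0.0167) and -0.16 for Mest (exact p = 0.233). Here 0.0167 is the smallest two-sided p that 3 against 7 embryos can give.

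Within classes, the question was whether each gene differed between cells given the same name. For Dnmt1 KO, 4 classes had at least 25 cells in 3 embryos of each group: ExE endoderm, ExE mesoderm, gut endoderm and endothelium. A lack of overlap between the groups is given only as a description, since its share among all genes was not counted in any class. Peg10 rose in 3 of them. In the ExE endoderm it had 846, 679 and 762 CPM in Dnmt1 KO embryos against 235 to 380 CPM in WT (median 295 CPM), with no overlap. The log2 fold change was 1.33 ± 0.12 (edgeR adjusted p = 4.3e-07). In the ExE mesoderm the levels were 664, 584 and 491 CPM against 136 to 222 CPM, and in the gut endoderm 315, 264 and 269 CPM against 59.5 to 120 CPM, again with no overlap. These were log2 fold changes of 1.90 ± 0.15 (edgeR adjusted p = 4.2e-08) and 1.66 ± 0.16 (edgeR adjusted p = 2.8e-07). In the endothelium, by contrast, Peg10 had 64.6, 63.0 and 93.5 CPM in Dnmt1 KO and 56.0 to 142 CPM in WT embryos, which overlapped, and its log2 fold change of -0.30 ± 0.28 did not pass (edgeR adjusted p = 0.38).

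**Figure D3:**
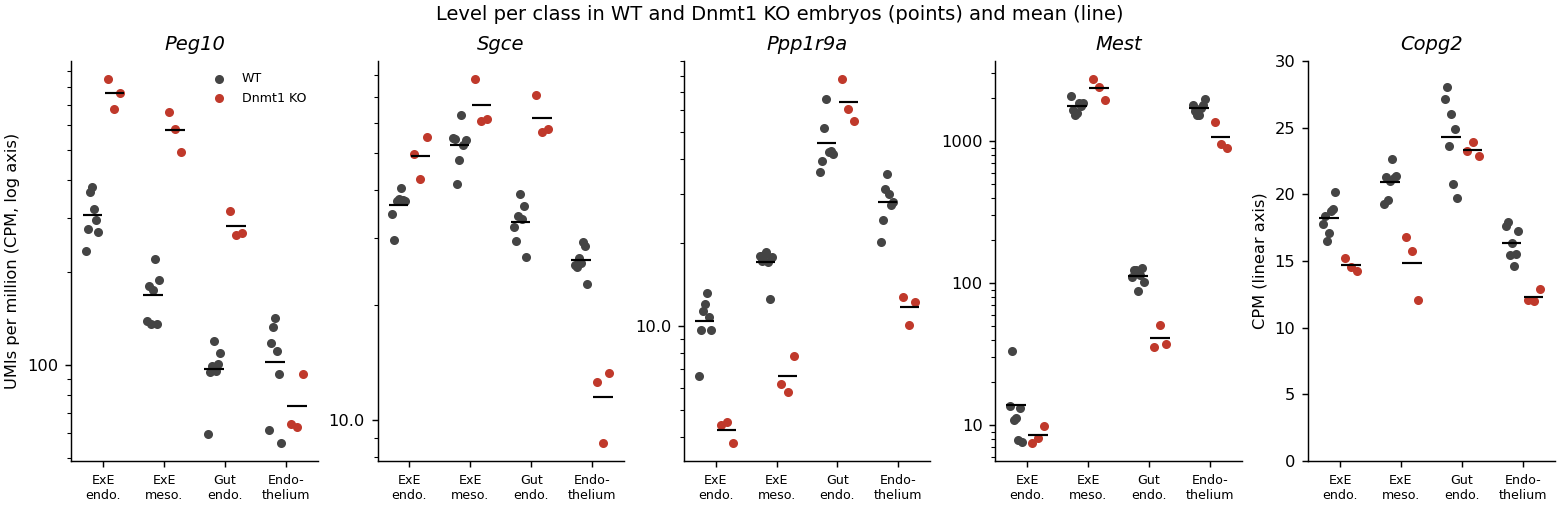
Level of each gene per embryo (points) and group mean (line) in the 4 classes with at least 3 embryos in both WT (grey) and Dnmt1 KO (red), in CPM on a log axis, except Copg2 on a linear axis. Peg10 lies above the WT range in 3 classes and within it in the endothelium, and Ppp1r9a lies below the WT range in 3 classes but not in the gut endoderm.

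Sgce rose in the gut endoderm, from 26.7 to 39.0 CPM in WT embryos to 70.6, 56.7 and 57.8 CPM in Dnmt1 KO embryos, a log2 fold change of 1.01 ± 0.12 (edgeR adjusted p = 3.7e-06). It also rose in the ExE endoderm, with 49.5, 42.7 and 54.9 CPM against 29.6 to 40.4 CPM (log2 fold change 0.43 ± 0.10, edgeR adjusted p = 0.0042), a call lost without Dnmt1 KO 1 (0.44, edgeR adjusted p = 0.0229) or Dnmt1 KO 3 (0.35, edgeR adjusted p = 0.0431). Neither class had an overlap between the groups. In the ExE mesoderm it had 77.8, 60.7 and 61.4 CPM against 41.4 to 62.9 CPM, and the log2 fold change of 0.46 ± 0.16 did not pass (edgeR adjusted p = 0.035), although it did without the library labelled Dnmt3b KO 12, which shares in the estimate of the spread (0.46, edgeR adjusted p = 0.0017). In the endothelium Sgce fell to 12.6, 8.73 and 13.3 CPM from 22.7 to 29.3 CPM in WT (log2 fold change -1.01 ± 0.15, edgeR adjusted p = 1.9e-05), so that the neighbours Peg10 and Sgce rose together in the gut and ExE endoderm but not in the endothelium.

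Ppp1r9a fell in the ExE endoderm (4.40, 4.50 and 3.80 CPM against 6.61 to 13.2 CPM), the ExE mesoderm (6.20, 5.81 and 7.80 CPM against 12.5 to 18.5 CPM) and the endothelium (12.7, 10.1 and 12.3 CPM against 20.2 to 35.5 CPM). The groups did not overlap in any of these 3 classes, but how many of all genes lack an overlap there was not counted. The log2 fold changes were -1.25 ± 0.16, -1.26 ± 0.16 and -1.09 ± 0.21 (edgeR adjusted p = 2.7e-05, 1.1e-05 and 2.3e-04). In the gut endoderm Ppp1r9a had 77.6, 60.5 and 55.0 CPM against 35.9 to 65.8 CPM in WT, overlapping, with a log2 fold change of 0.60 ± 0.16 at the edge of the threshold (edgeR adjusted p = 0.0097), and the call was lost when any 1 of 13 of the 18 libraries was left out, with log2 fold changes of 0.46 to 0.72 over all 18. Over all 25 alternatives tried, these included, the call was lost in 16.

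Mest, which did not pass the test in the whole embryo, moved in opposite directions between classes. In the ExE mesoderm it had 2727, 2412 and 1947 CPM in Dnmt1 KO embryos and 1530 to 2066 CPM in WT embryos. Its WT mean is highest there, close to that of the endothelium. The third Dnmt1 KO embryo lay within the WT range, and the log2 fold change was 0.52 ± 0.11 (edgeR adjusted p = 0.0011), or 0.43 (edgeR adjusted p = 0.0160) without Dnmt1 KO 1. In the endothelium it fell to 1363, 953 and 888 CPM from 1516 to 1980 CPM (log2 fold change -0.50 ± 0.14, edgeR adjusted p = 0.0063). This call was lost without any 1 of Dnmt1 KO 2 (-0.43), Dnmt1 KO 3 (-0.37), WT 1 (-0.48), WT 5 (-0.49), WT 6 (-0.50) and WT 7 (-0.46), with doublets kept (-0.43, edgeR adjusted p = 0.0117) and with a replicate block (-0.49, edgeR adjusted p = 0.0172). Mest also fell in the gut endoderm to 35.3, 51.1 and 37.1 CPM from 88.4 to 127 CPM (log2 fold change -1.36 ± 0.21, edgeR adjusted p = 1.0e-04). Neither class showed an overlap. In the ExE endoderm Mest had 7.51, 8.14 and 9.91 CPM against 7.59 to 33.5 CPM, and the log2 fold change of -0.72 ± 0.53 did not pass (edgeR adjusted p = 0.34). Copg2 passed in no class, with log2 fold changes of -0.25, -0.29 and -0.38 in the endothelium, ExE endoderm and ExE mesoderm, where its Dnmt1 KO levels all lay below the WT range, and 0.03 in the gut endoderm. In the ExE mesoderm it passed in 3 of 26 alternatives. Among them were those without the library labelled Dnmt3b KO 11 (-0.38, edgeR adjusted p = 0.0090) or Dnmt3b KO 12 (-0.38, edgeR adjusted p = 0.0062), whereas without Dnmt1 KO 3 it was -0.25.

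Over these 20 pairs of gene and class, 7 rose and 6 fell, and 21.2% of all genes tested were called in the same fits, 10.4% higher and 10.8% lower. By class, 36.6% of genes were called in the endothelium (17.3% higher and 19.4% lower), 21.8% in the ExE mesoderm (10.4% and 11.5%), 14.2% in the ExE endoderm (7.43% and 6.74%) and 13.3% in the gut endoderm (7.01% and 6.26%). The share of all genes without an overlap between the groups was not counted in any class. Scaling by total counts in place of the trimmed mean of M-values, an alternative chosen after seeing the data, moved the median of all genes by -0.18 in the endothelium, -0.11 in the gut endoderm and -0.10 in the ExE mesoderm on the log2 scale. The pairs that rose then numbered 6, without Ppp1r9a in the gut endoderm, and those that fell 6. The CPM ranges given for each class are scaled by total counts as well, and so hold this shift of the median. With a covariate for the share of Y-linked counts, the calls of Mest in the ExE mesoderm (0.42, edgeR adjusted p = 0.058) and the endothelium (-0.44, edgeR adjusted p = 0.076) and of Ppp1r9a in the gut endoderm (0.60, edgeR adjusted p = 0.090) were lost, and Sgce in the ExE mesoderm passed (0.77, edgeR adjusted p = 0.0067).

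The classes were made in large part of different clusters in the 2 groups, and the same name does not make the cells alike. The cluster percentages below are of the reference cells used for clustering, at most 1500 per library. Of Dnmt1 KO cells named endothelium, 73.3% were in a cluster led by Usp26 and Kdr that held 0.324% of WT endothelial cells. Of those named ExE mesoderm, 96.3% were in a cluster led by Tdo2 and Stard8 that held 0.671% of those of WT. For the ExE endoderm 72.0% were in a cluster led by Apob, Cubn and Pkd1l2 that held 0.228% of WT cells of that name. Of the WT cells, 55.6% were in another cluster, led by Apob, Cubn and Afp, that held 0.308% of the Dnmt1 KO cells. Other clusters were shared. One led by Lyve1 and Gngt2 held 46.5% of WT and 26.3% of Dnmt1 KO endothelial cells. One led by Apoa1 and Ttr held 44.2% of WT and 27.6% of Dnmt1 KO ExE endoderm cells. Both were of cells with few UMIs, with medians of 0.217 and 0.219 of the library median. The gut endoderm of both groups fell wholly in the same 2 clusters (84.2% and 49.1% in the larger one for Dnmt1 KO). The gut endoderm of Dnmt1 KO embryos had only 30, 39 and 38 cells, with 419 to 678 UMIs of Peg10 and 68 to 81 of Mest. The summed ExE ectoderm markers were lower in Dnmt1 KO than in WT embryos in the ExE endoderm (44.4 to 51.0 against 54.7 to 95.7 CPM), the gut endoderm (6.54 to 8.36 against 10.6 to 17.3 CPM) and the endothelium (18.6 to 25.3 against 49.0 to 96.6 CPM), and higher in the ExE mesoderm (76.1 to 92.0 against 39.0 to 63.7 CPM).

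Whether a change differed between classes was tested by exact permutation of the embryos on the level in a class minus the mean of the other classes. Relative to the other classes, the Dnmt1 KO minus WT difference in log2(CPM + 1) was -1.97 for Peg10 and -1.68 for Sgce in the endothelium, 1.68 for Ppp1r9a in the gut endoderm and 1.30 for Mest in the ExE mesoderm. Each had an exact p of 0.0167, the smallest that 3 against 7 embryos can give, and an adjusted p of 0.147 over the 150 tests of all 3 KO groups, or 0.0278 over the 20 of Dnmt1 KO. Since 0.0167 is above the threshold of 0.01, no Dnmt1 KO difference could have passed, and these values are a description.

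In the Dnmt3a KO and Dnmt3b KO embryos, whose comparisons use the same WT embryos, Sgce was above every WT embryo in all. It had 34.5, 30.5, 35.7 and 39.1 CPM in the Dnmt3a KO embryos 1, 2, 13 and 14, and 31.6, 32.3 and 40.6 CPM in the summed pair and the libraries labelled Dnmt3b KO 11 and 12, against a WT maximum of 28.8 CPM. The log2 fold changes were 0.41 ± 0.11 for Dnmt3a KO (edgeR adjusted p = 0.14) and 0.40 ± 0.12 for Dnmt3b KO (edgeR adjusted p = 0.089), which did not pass. The share of all genes that lie above every WT embryo in this way was not counted. With each class weighted by its WT share the differences in log2(CPM + 1) were 0.11 and -0.09, over 13 classes that leave out the allantois, where Sgce is highest. The allantois made up 2.89% ± 1.65 (SD, n = 7) of WT cells, 3.70% ± 1.03 (n = 4) of Dnmt3a KO cells and 4.25% ± 2.27 (n = 3) of Dnmt3b KO cells.

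Mest had 646, 468, 630 and 755 CPM in Dnmt3a KO embryos, 3 of 4 above the WT range (log2 fold change 0.33 ± 0.12, edgeR adjusted p = 0.33), and 589, 536 and 563 CPM in Dnmt3b KO embryos (log2 fold change 0.17, edgeR adjusted p = 0.52). Peg10, by contrast with the Dnmt1 KO embryos, had 104, 155, 87.1 and 137 CPM in Dnmt3a KO and 129, 103 and 87.5 CPM in Dnmt3b KO embryos, within or close to the WT range of 78.4 to 142 CPM. Its log2 fold changes were 0.11 (edgeR adjusted p = 0.92) and -0.08 (edgeR adjusted p = 0.88). Ppp1r9a had log2 fold changes of -0.27 and -0.29 (edgeR adjusted p = 0.62 and 0.41), the second of which was -0.081 without Dnmt3b KO 12, and Copg2 of 0.12 and 0.16 (edgeR adjusted p = 0.64 and 0.30). None of the 5 members passed edgeR's test in either group, where 0.229% and 2.01% of genes were called. At an unadjusted p under 0.05 there were 2 for Dnmt3a KO (Mest and Sgce) and 1 for Dnmt3b KO (Sgce), where 9.49% and 17.4% of genes were. DESeq2 called 0 in both, where it called 0.754% and 3.06% of genes.

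**Figure D4:**
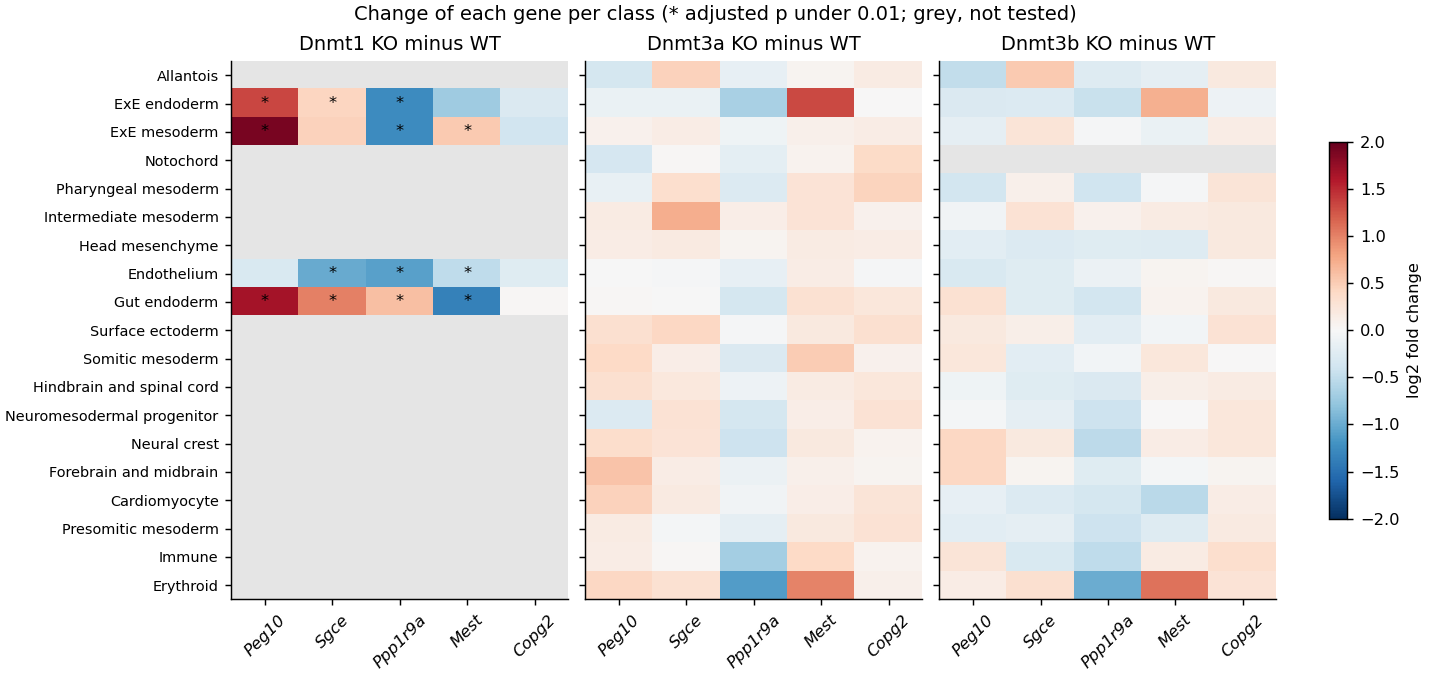
Log2 fold change against WT (colour, red higher and blue lower) of each gene in each class, for the 3 KO groups, with an asterisk where the adjusted p was under 0.01 and grey where a class had too few embryos to be tested. The 13 asterisks are all among the 20 pairs of Dnmt1 KO, and the panels of Dnmt3a KO and Dnmt3b KO have none.

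Across classes, none of 95 pairs of gene and class in Dnmt3a KO and none of 90 in Dnmt3b KO passed edgeR's test, where 0.135% and 0.703% of genes were called. At an unadjusted p under 0.05 there were 18 and 11 pairs, where 9.83% and 13.7% of genes were. DESeq2 called 1 higher and 1 lower in Dnmt3a KO and 0 in Dnmt3b KO, where it called 0.378% and 1.13% of genes. Nearest to the threshold in Dnmt3a KO were Ppp1r9a in the ExE endoderm, at 5.40 to 7.90 CPM against 6.61 to 13.2 CPM (log2 fold change -0.64 ± 0.14, edgeR adjusted p = 0.015), and Sgce in the intermediate mesoderm (0.73 ± 0.14, edgeR adjusted p = 0.015), a class in which 3 of its 6 markers were higher than in the mean of the other classes. In Dnmt3b KO the nearest was also Ppp1r9a in the ExE endoderm (-0.45 ± 0.15, edgeR adjusted p = 0.12). Some Dnmt3b KO classes also held clusters of their own. The ExE mesoderm clusters led by Dazl had Dnmt3b KO shares of 0.995 and 1, and an erythroid cluster led by Hbb-y and Hba-a2 had 0.993. The log2 fold changes of Mest in Dnmt3a KO were above 0 in 19 of 19 classes, with a median of 0.20, and those of Ppp1r9a in Dnmt3b KO were above 0 in 1 of 18, with a median of -0.32, none of them past the threshold. The classes come from the same embryos, so these counts are not of independent observations. The share of all genes with such counts was not taken. In the allantois, the class with the highest WT level of Peg10 and Sgce, Peg10 had 361 to 523 CPM in Dnmt3a KO and 311 to 491 CPM in Dnmt3b KO embryos, within or just under the WT range of 371 to 657 CPM. Its log2 fold changes there were -0.35 and -0.50 (edgeR adjusted p = 0.35 and 0.28). Sgce in the allantois had 196 to 389 CPM in Dnmt3a KO and 224 to 493 CPM in Dnmt3b KO embryos against 150 to 296 CPM in WT, which overlapped, with log2 fold changes of 0.46 and 0.53 that did not pass (edgeR adjusted p = 0.42 and 0.47). Dnmt1 KO embryos held 4 allantois cells in all, too few for a value.

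The difference between KO groups was tested in the same fit. Peg10 was higher in Dnmt1 KO than in Dnmt3a KO embryos by 1.99 ± 0.23 (edgeR adjusted p = 9.6e-06) and than in Dnmt3b KO embryos by 2.18 ± 0.25 (edgeR adjusted p = 2.0e-05) on the log2 scale, the only member edgeR called in either, where 20.7% and 13.9% of genes were called. Copg2 was lower by -0.30 and -0.35 (edgeR adjusted p = 0.013 and 0.011), just outside the threshold, and DESeq2 called both. With edgeR the first passed without Dnmt3b KO 12 (-0.34) or WT 4 (-0.34) and the second without Dnmt3a KO 14 (-0.36) or Dnmt3b KO 1 (-0.36). Between Dnmt3a KO and Dnmt3b KO embryos, 0 members passed edgeR's test, 0 reached an unadjusted p under 0.05, DESeq2 called 0, and 0.219% of genes were called. Of the 3 Dnmt3b KO replicates, 2 had Dnmt3a below every WT embryo and the other may be a mixture. Whether loss of Dnmt3a and of Dnmt3b act alike therefore cannot be read from this.

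The genes around the members were read in the same Dnmt1 KO comparison, in which 12.4% of all genes rose and 10.9% fell. Of 16 genes near Peg10 and Sgce, 1 rose and 3 fell, a share near that of all genes, with a median log2 fold change of -0.08 against 0.02 over all genes tested. Vps50, which acts in the return of cargo from endosomes, rose by 0.37, and Gng11, a G protein subunit, Col1a2, a collagen chain, and Pon3, a lactonase, changed by -0.90, -0.99 and -1.58. Of 15 genes near Mest, 1 rose and 1 fell, with a median of 0.06. Tmem209, a membrane protein gene, rose by 0.43. Klf14, an imprinted transcription factor gene 236 kb from Mest, fell from 1.30 to 2.32 CPM in WT embryos to 0.250, 0.184 and 0.0771 CPM (26, 24 and 6 UMIs) in Dnmt1 KO embryos. Its log2 fold change of -3.27 ± 0.34 was the largest of either region (edgeR adjusted p = 1.7e-06), and it also fell in the endothelium, ExE endoderm and ExE mesoderm.

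**Figure D5:**
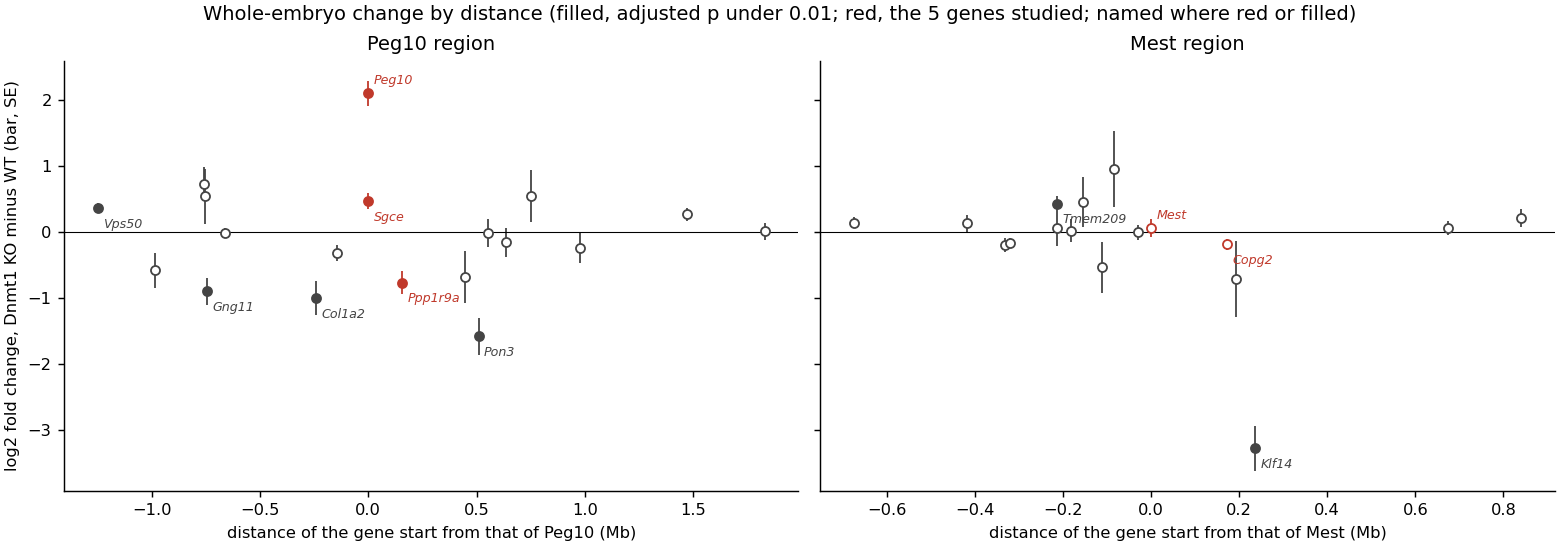
Log2 fold change of Dnmt1 KO minus WT in the whole embryo (points, with the SE as a bar) for the genes around Peg10 (left) and Mest (right), by the distance of the gene start in Mb. Filled points passed the test and red points are the 5 genes described, and Peg10 at 2.10 and Klf14 at -3.27 stand farthest from 0.

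Asb4, a gene of the Peg10 region 636 kb from Peg10 and known to be imprinted, had 14.4 to 20.3 CPM in WT embryos and 13.5, 8.40 and 21.3 CPM in Dnmt1 KO embryos, but 34.2, 32, 35.6 and 42.3 CPM in Dnmt3a KO and 27.0, 25.2 and 43.2 CPM in Dnmt3b KO embryos, all above every WT embryo. Its log2 fold changes of 1.08 (edgeR adjusted p = 0.012) and 0.89 (edgeR adjusted p = 0.021) against WT just missed the threshold, and it was lower in Dnmt1 KO than in Dnmt3a KO embryos by -1.23 (edgeR adjusted p = 0.0012) and than in Dnmt3b KO embryos by -1.04 (edgeR adjusted p = 0.0073). How many of all genes lie above every WT embryo as Asb4 does was not counted. Slc25a13, a mitochondrial carrier gene, was higher in Dnmt1 KO than in Dnmt3b KO embryos by 0.51 (edgeR adjusted p = 0.0056). Within classes, Asb4 rose in 2 of the 18 tested for Dnmt3a KO and in 0 of 17 for Dnmt3b KO, where 0.135% and 0.703% of genes were called. For Dnmt1 KO it fell in 1 of 4, the endothelium (-0.95, edgeR adjusted p = 7.3e-05), where 36.6% of genes were called. In the whole embryo, none of the genes near the members passed edgeR's test in Dnmt3a KO or Dnmt3b KO against WT. At an unadjusted p under 0.05 there were 2 of 16 and 3 of 16 near Peg10 and 2 of 15 and 6 of 15 near Mest, where 9.49% and 17.4% of all genes were. DESeq2, which called 0.754% and 3.06% of all genes, called Asb4 in both groups and no gene near Mest.

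Imprinted genes of other loci with a maternally methylated control region gave a comparison for the size of these changes. Of 13 tested in Dnmt1 KO embryos, 7 rose and 2 fell, beside 12.4% and 10.9% of all genes, with a median of 0.51. Peg3, Zrsr1 and Slc38a4, known as paternally expressed genes, rose by 1.54, 1.23 and 1.12, and Airn, Inpp5f and Kcnq1ot1 by 0.90, 0.73 and 0.67. Mcts2 also rose. Igf2r and Grb10, known as maternally expressed in most of these tissues, changed by -1.80 and -6.47. In the whole embryo the log2 fold change of Peg10, at 2.10, was above those of the 7 and that of Sgce, at 0.47, below them. This order was not tested, and within classes it held only in part. Peg10 was also above all 7 in the ExE mesoderm, at 1.90, and in the gut endoderm, at 1.66, but not in the ExE endoderm or endothelium. In the ExE endoderm Airn rose by 1.65 and Peg10 by 1.33, in the endothelium Zrsr1 rose by 1.64 and Kcnq1ot1 by 1.35 whereas Peg10 had -0.30, and in the gut endoderm Sgce, at 1.01, was above Airn, at 0.91, and Peg3, at 0.89. None of the 13 passed edgeR's test in the whole Dnmt3a KO or Dnmt3b KO embryo against WT, with 3 and 4 at an unadjusted p under 0.05 and 0 called by DESeq2.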

How the data were processed

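Per the labels and the study's methods, the authors counted reads of the 10x Genomics 3′ v3 libraries on mm10 with Cell Ranger (3.1.0 in 17 and 5.0.0 in 1 library per the file headers) and deposited raw UMI counts per gene and barcode. The 4 groups were compared as labelled. Barcodes with at least 1500 UMIs, at most 30% mitochondrial and 35% ribosomal counts were kept (7647 of 115641 removed as doublets by Scrublet), clustered with Leiden (scanpy 1.11.5, leidenalg 0.10.2) and named from marker lists, which left 12 of 52 clusters unnamed. Combined human and mouse references were used for 4 libraries, of which only mouse genes were read. Counts were summed per embryo, and per embryo and class with at least 25 cells, and tested across all genes with edgeR 4.0.16 (R 4.3.3; filterByExpr, TMM, quasi-likelihood test, Benjamini-Hochberg, threshold adjusted p under 0.01), with DESeq2 1.42.0, other scalings, filters, covariates and left-out libraries as alternatives. CPM values are not TMM-scaled, whereas fold changes are. SE values were derived from the test statistic. The edgeR fit was checked on simulated counts of the whole-embryo Dnmt1 KO comparison, with the same spread for all genes. Log2 changes of 1 and -1 were called in 63.27% and 40.82% of the changed genes, and those of 2 and -2 in 98% and 91.84%. The class fits and the other KO groups were not simulated. P-values measure the spread between embryos, and the sums, at 36504510 UMIs or more per library, carry little counting error except for low genes in small classes. The members and lists were chosen with earlier results of these data known. Named genes are the 5 members, the targeted genes, the genes of the neighbour and imprinted lists that passed in a whole-embryo comparison (values for at most 8 of each list), and the 5 genes most like Mest and Peg10, with a mean of at least 10 CPM.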

Additional observations from a re-analysis of the deposited data

Results flagged for a closer look

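Peg10 differed between KO groups in the same fit: its log2 fold change was 1.99 for Dnmt1 KO minus Dnmt3a KO (edgeR adjusted p = 9.6e-06) and 2.18 for Dnmt1 KO minus Dnmt3b KO (edgeR adjusted p = 2.0e-05), with 3 of 3 Dnmt1 KO embryos above every embryo of the other groups. In 30 groups of 4 to 7 embryos, 5 had a sample far from the others, where chance gives about 1 in 20. Mest in the ExE endoderm was 33.5 CPM in WT 2 and 7.59 to 13.5 CPM in the other WT embryos. Peg10 in the gut endoderm was 59.5 CPM in WT 1 and 94.8 to 120 CPM in the others. Ppp1r9a in the ExE mesoderm was 12.5 CPM in WT 6 and 17.0 to 18.5 CPM in the others. In the whole embryo, Dnmt3a KO 14 was apart from the other Dnmt3a KO embryos for Copg2 (25.3 CPM against 19.5 to 19.8 CPM) and for Ppp1r9a (24.3 CPM against 17.4 to 18.0 CPM).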

How the results depend on the processing

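Values are log2 fold changes or differences. The rise of Peg10 in the whole Dnmt1 KO embryo against WT passed the threshold in every edgeR and DESeq2 fit tried (1.52 to 2.32), and its difference from the other KO groups in every fit except the one with a replicate block. The cause of the changes below was not tested, unless fewer samples, cells or genes entered by construction. In Dnmt1 KO minus WT, Sgce missed the threshold with the Y-linked covariate (0.49), without a filter on low counts (0.43), thinned to the smallest library (0.45), with total-count scaling (0.40) and outside the erythroid cells, ExE ectoderm and ExE endoderm (0.36), where Mest passed (0.51). Total-count scaling gave Mest -0.0048. The fold minimum of the study removed the calls of Sgce (0.47) and Ppp1r9a (-0.76) and left 4 rising pairs of gene and class, as did a minimum of 50 cells (4). With classes weighted by their WT shares, the differences in log2(CPM + 1) were 1.30 for Peg10, 0.32 for Sgce, -0.38 for Ppp1r9a, -0.28 for Copg2 and -0.16 for Mest. Those of Mest and Sgce were 0.18 and 0.11 in Dnmt3a KO and -0.023 and -0.090 in Dnmt3b KO. These values are scaled by total counts and use only classes with enough cells in every embryo. They therefore differ from the fits in scaling and cells as well as in weights.

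The replicate numbers were not taken to pair the samples. The deviations of same-numbered libraries from their group means correlated between -0.46 and 0.54, with 5 of 13 pairs over 0.1. Libraries with different numbers were not compared, so these values cannot tell whether the numbers mark pairs. With a replicate block, and Dnmt3b KO 1 and 2 kept apart, Sgce (0.34, edgeR adjusted p = 0.125) and Ppp1r9a (-0.69, edgeR adjusted p = 0.0108) in Dnmt1 KO minus WT, Peg10 against Dnmt3a KO (1.89, edgeR adjusted p = 0.0123) and Dnmt3b KO (1.95, edgeR adjusted p = 0.0106), and the targeted Dnmt3a (-1.55) missed the threshold, Ppp1r9a in Dnmt1 KO minus Dnmt3b KO passed it (-1.0), and Peg10 (0.075) and Ppp1r9a (0.31) in Dnmt3b KO minus WT, Mest (-0.013) and Ppp1r9a (-0.52) in Dnmt3a KO minus Dnmt3b KO and Copg2 in the gut endoderm (-0.089) changed sign without a call. Within classes the block also removed the call of Mest in the endothelium (-0.49, edgeR adjusted p = 0.0172) and gave one for Sgce in the ExE mesoderm (0.50, edgeR adjusted p = 0.0081).

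Copg2 in Dnmt1 KO minus Dnmt3a KO passed with DESeq2 (-0.29), the UMI minimum alone (-0.31), no filter on low counts (-0.37), the cells outside the 3 classes (-0.38), thinning (-0.37), without Dnmt3b KO 11 and 12 (-0.31) and at a threshold of 0.05 (-0.30). Against Dnmt3b KO it passed with DESeq2 (-0.34), the pair kept apart (-0.33), the UMI minimum alone (-0.34), outside the 3 classes (-0.42), the reference covariate (-0.36), thinning (-0.39) and at 0.05 (-0.35). DESeq2 called 1 rising and 1 falling pair in Dnmt3a KO. The other reversals were of values that did not pass in either fit. Outside the 3 classes they were Peg10 in Dnmt3b KO minus WT (0.10), Mest and Sgce in Dnmt1 KO minus Dnmt3a KO (0.19 and -0.16) and minus Dnmt3b KO (0.40 and -0.14) and the targeted Dnmt3b (-0.10). Without Dnmt3b KO 11 and 12 they were Peg10 (0.14), Ppp1r9a (0.14) and Dnmt3b (-0.18) in Dnmt3b KO minus WT and Copg2 (0.031), Peg10 (-0.038) and Ppp1r9a (-0.41) in Dnmt3a KO minus Dnmt3b KO. The rest were Peg10 in Dnmt3a KO minus WT with the Y-linked covariate (-0.071) and in Dnmt3b KO minus WT with the reference covariate (0.0060), Sgce in Dnmt1 KO minus Dnmt3a KO without a filter (-0.015) and with total counts (-0.027) and minus Dnmt3b KO with total counts (-0.022), Ppp1r9a in Dnmt3a KO minus Dnmt3b KO with the pair kept apart (-0.11) and the Y-linked covariate (-0.060), Dnmt3b with the pair kept apart (-0.037), the UMI minimum alone (-0.0018) and thinning (-0.0012), and Copg2 in the gut endoderm with the Y-linked covariate (-0.015) and total counts (-0.079, an alternative chosen after seeing the data).

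Leaving out each library in turn gave, in Dnmt1 KO minus WT, 1.93 to 2.32 for Peg10, 0.33 to 0.55 for Sgce, -0.85 to -0.67 for Ppp1r9a, -0.068 to 0.25 for Mest, -0.0061 to 0.072 for Copg2 in the gut endoderm and 4 to 8 rising pairs (4 without Dnmt1 KO 1). Dnmt1 KO minus Dnmt3a KO ranged over -0.34 to -0.28 for Copg2 and -0.076 to 0.14 for Sgce, and Dnmt1 KO minus Dnmt3b KO over -0.39 to -0.29 for Copg2, -0.056 to 0.16 for Sgce and -0.23 to 0.072 for Mest. Peg10 ranged over -0.061 to 0.22 in Dnmt3a KO and -0.14 to 0.073 in Dnmt3b KO minus WT. In Dnmt3a KO minus Dnmt3b KO the ranges were -0.086 to 0.047 for Copg2, -0.024 to 0.13 for Sgce and -0.16 to 0.048 for Ppp1r9a. The targeted Dnmt3a ranged over -1.73 to -1.61 and missed the threshold without Dnmt3a KO 1 (-1.65), 2 (-1.72) or 13 (-1.61), and Dnmt3b ranged over -0.083 to 0.090. In Dnmt3a KO there were 0 to 1 rising pairs (1 without Dnmt3a KO 1, WT 1 or WT 2) and 0 to 1 falling pairs (1 without WT 1). The Dnmt1 KO classes were limited by cell number, with 30 to 39 gut endoderm cells per embryo and 4 classes that could be tested.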

Other observations

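A class named epiblast-like, whose cluster was led by Pou5f1, a gene of pluripotent cells, made up 13.3% ± 3.99 (SD, n = 3) of cells in Dnmt1 KO and 0.0469% ± 0.0711 (n = 7) in WT embryos, so no comparison with WT was possible in it. There the Dnmt1 KO embryos had 50.9, 67.6 and 42.5 CPM of Peg10, 220, 165 and 169 CPM of Mest, 21.5, 20.3 and 18.5 CPM of Sgce, 33.7, 32.1 and 25 CPM of Ppp1r9a and 19.4, 21.1 and 17.6 CPM of Copg2. In each of the 3 embryos Peg10 was lower there than in the ExE endoderm, ExE mesoderm and gut endoderm. In the ExE ectoderm, Mest had 33.5, 31 and 51.8 CPM and Sgce 13.1, 15.1 and 16.1 CPM in the Dnmt1 KO embryos, beside 25.6 and 8.32 CPM in WT 2, the only WT embryo with at least 25 such cells.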
